A study of Rattus norvegicus with 9 samples.

Results

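The genes described here are 10 genes of MHC class I antigen presentation: the heavy chains H2-D1, H2-K1, H2-Q4 and H2-T23, the light chain B2m, the peptide transporter subunits Tap1 and Tap2, the loading factor Tapbp, the immunoproteasome subunit Psmb8, and the regulator Nlrc5. They were chosen by name, with their differences between these libraries already known, from a table of 23953 genes, and all 10 were listed and passed the filter on low counts in each comparison. Their levels and differences are therefore a description, and no p-value is given for them. The cells were neural stem cells (NSCs) taken from spinal cords of neonatal rats and cultured in differentiation medium (DMEM/F12 with B-27, N-2, FGF, bFGF and FBS), which all groups shared. According to the study's methods, the Con group had this medium alone, the Exo group received exosomes of bone marrow mesenchymal stem cells (BMSCs) carrying an empty lentiviral vector, and the pLV-Exo-Wnt5a group received exosomes of BMSCs that overexpressed Wnt5a from a lentiviral vector. Each group had 3 RNA sequencing libraries, all with the same batch label. The sources do not say whether the 3 libraries came from separate cultures, so the spread between them may be technical.

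MHC class I molecules carry peptides of the cell's own proteins to its surface, where T cells and natural killer cells read them. Proteasomes cut the proteins, the TAP transporter moves the peptides into the endoplasmic reticulum, tapasin helps to load them onto a heavy chain, and the loaded chain leaves for the surface with B2m as its partner. Interferons are known to induce these genes together, through elements near their starts and through the transactivator NLRC5, and cells of the nervous system are known for low levels at rest.

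The start regions are shown because such elements lie in them. RefSeq windows of the rat assembly GRCr8, each running from 250 bases before to 50 bases after the annotated start, were matched for 6 of the 10 genes. B2m, Tap1, Tap2, Tapbp and Psmb8 were matched by symbol, and H2-T23 was matched through its listing as a synonym of RT1-S3. H2-D1, H2-K1, H2-Q4 and Nlrc5 were not matched. A pair of GAAA runs with 2 bases of any kind between them, letters that resemble the interferon-stimulated response element, was searched on both strands. It was in 6 of the 6 windows and in 3.92% of all 33469 windows of this length. In the lines that follow, each read 5′ to 3′ in the direction of its gene, capitals mark this match on either strand.
RT1-S3 (chr20:2675401-2675507, plus strand): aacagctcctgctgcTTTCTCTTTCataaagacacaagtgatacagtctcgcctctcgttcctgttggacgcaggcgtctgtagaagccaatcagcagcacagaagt
B2m (chr3:129549165-129549285, plus strand): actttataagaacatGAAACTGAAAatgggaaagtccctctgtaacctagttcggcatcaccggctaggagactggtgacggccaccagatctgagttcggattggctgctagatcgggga
Tap1 (chr20:4668574-4668679, minus strand): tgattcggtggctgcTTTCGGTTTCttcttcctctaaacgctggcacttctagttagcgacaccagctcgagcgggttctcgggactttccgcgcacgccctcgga
Tap2 (chr20:4652313-4652352, minus strand): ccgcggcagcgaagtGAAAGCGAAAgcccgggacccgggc
Tapbp (chr20:4967878-4967953, minus strand): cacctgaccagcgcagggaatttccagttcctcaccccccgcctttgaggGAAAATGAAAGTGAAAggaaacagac
The first match began 112 bases before the start in RT1-S3, 150 in B2m, 121 in Tap1, 41 in Tap2 and 26 in Tapbp, where another, overlapping match began 20 bases before the start. In Psmb8 the match ran across the start itself, from 4 bases before it, and is not printed. CCAAT, searched on both strands, was in 3 of the 6 windows (RT1-S3, B2m and Psmb8), against 37.5% of all windows. The NF-κB consensus was in 3 (B2m, Tap1 and Tapbp), against 4.18% of all, TGACG was in 1 (B2m), against 21.2%, and TTCNNNGAA was in 1 (Psmb8), against 8.87%. Tap1 and the immunoproteasome gene Psmb9 point away from each other with 456 bases between their starts, and their windows share 44 bases. A match of letters is a description and does not show that a factor binds.

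The labels describe rat cells, but the rows of the table carry symbols and NCBI gene numbers of the mouse. Rat class I genes carry other names (RT1), so how reads of the rat class I family were assigned to the mouse names could not be examined, and each H2 value is the level of that row of the table. Total counts were between 32765138 and 40427647 per library, at which a count of 0 allows a level of up to 0.0742 to 0.0916 CPM, the value of 3 counts. CPM relates the counts of a gene to the total of its library, with the same multiplier in every library. The limit of 3 counts covers counting error only. Levels are given as CPM after TMM scaling over the 9 libraries, and differences as log2 fold changes (log2FC) with their standard errors (SE) from edgeR fits of the 6 libraries compared. Con replicate 1 stood apart in composition, with a TMM factor of 0.95 against 0.996 to 1.02 in the other 8 libraries. Gene lengths were not used, so levels are compared between groups and not between genes.

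H2-D1 (NCBI gene number 14964) is a classical heavy chain that presents peptides to cytotoxic T cells. Its level was 145, 122 and 127 CPM in Con replicates 1, 2 and 3 (132 ± 12.1, SD, n = 3), 118, 109.8 and 113 CPM in the Exo group (114 ± 4.29), and 210.5, 202 and 239 CPM in pLV-Exo-Wnt5a (217 ± 19.6). The 3 groups did not overlap: every Exo library was below every Con library, and every pLV-Exo-Wnt5a library was above both. The log2FC was 0.94 (SE 0.07) between pLV-Exo-Wnt5a and Exo, 0.72 (SE 0.10) between pLV-Exo-Wnt5a and Con, and -0.21 (SE 0.08) between Exo and Con.

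H2-K1 (NCBI gene number 14972), the other classical heavy chain, had the same order. Its level was 80.0, 65.4 and 59.4 CPM in the Con group (68.3 ± 10.6), 59.2, 53.5 and 49.6 CPM in the Exo group (54.1 ± 4.84), and 109.6, 99.4 and 138 CPM in pLV-Exo-Wnt5a (116 ± 19.8). No library of one group lay within another, although the lowest Con library (59.4 CPM) and the highest Exo library (59.2 CPM) were next to each other. It was 2.15-fold higher with Wnt5a exosomes than in the Exo group (log2FC 1.11, SE 0.11), with a log2FC of 0.76 (SE 0.14) against Con, and the Exo group was below Con by a log2FC of -0.33 (SE 0.12).

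H2-Q4 (NCBI gene number 15015), a nonclassical heavy chain of the Q region, showed the widest difference of the 10 genes. It was measured at 8.12, 7.06 and 5.51 CPM in the Con group (6.90 ± 1.31), 6.15, 4.99 and 5.05 CPM in the Exo group (5.4 ± 0.653), and 16.5, 16.3 and 23.7 CPM in pLV-Exo-Wnt5a (18.8 ± 4.22). The pLV-Exo-Wnt5a libraries were all at least 2.01 times the highest Con library, whereas Con and Exo overlapped. The level with Wnt5a exosomes was 3.51-fold that of the Exo group (log2FC 1.81, SE 0.17) and 2.72-fold that of the Con group (log2FC 1.44, SE 0.19).

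H2-T23 (NCBI gene number 15040) encodes Qa-1, a nonclassical heavy chain that presents signal peptides of other class I molecules to natural killer cell receptors. Its level was 7.99, 6.62 and 5.12 CPM in the Con group (6.58 ± 1.44), 4.93, 4.07 and 3.51 CPM in the Exo group (4.17 ± 0.714), and 6.59, 5.16 and 8.31 CPM in pLV-Exo-Wnt5a (6.69 ± 1.58). The Exo libraries were below all others, while Con and pLV-Exo-Wnt5a overlapped, with pLV-Exo-Wnt5a replicate 3 the highest of all. The log2FC was -0.66 (SE 0.21) for Exo against Con, 0.69 (SE 0.21) for pLV-Exo-Wnt5a against Exo, and 0.02 (SE 0.22) for pLV-Exo-Wnt5a against Con.

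B2m (NCBI gene number 12010), the light chain that every classical heavy chain needs to be stable at the surface, was at 42.7, 34.2 and 38.3 CPM in the Con group (38.4 ± 4.26) and at 38.9, 33.8 and 32.2 CPM in the Exo group (35.0 ± 3.51). With Wnt5a exosomes it was at 61.3, 46.8 and 73.5 CPM (60.5 ± 13.4). Con and Exo overlapped and the pLV-Exo-Wnt5a libraries were above both, with a spread among themselves that was wider than in the other groups. B2m was 1.74-fold higher with Wnt5a exosomes than in the Exo group (log2FC 0.80, SE 0.14), and its log2FC against Con was 0.65 (SE 0.15).

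Tap1 and Tap2 form the transporter that carries peptides into the endoplasmic reticulum. Tap1 (NCBI gene number 21354) was at 15.5, 11.3 and 11.2 CPM in the Con group (12.7 ± 2.44), 12.8, 9.86 and 12 CPM in the Exo group (11.6 ± 1.51), and 15.9, 16.3 and 18.2 CPM in pLV-Exo-Wnt5a (16.8 ± 1.20). Con replicate 1 nearly reached the lowest pLV-Exo-Wnt5a library, and the other Con libraries lay within the Exo range. Tap2 (NCBI gene number 21355) was at 10.3, 10.9 and 9.23 CPM in the Con group (10.2 ± 0.863), 10.9, 10.6 and 9.34 CPM in the Exo group (10.3 ± 0.831), and 13.2, 12.5 and 15.6 CPM in pLV-Exo-Wnt5a (13.8 ± 1.66). For Tap2 the Con and Exo groups covered the same range and the pLV-Exo-Wnt5a libraries were above it. Between pLV-Exo-Wnt5a and Exo the log2FC was 0.55 (SE 0.12) for Tap1 and 0.43 (SE 0.13) for Tap2, and against Con it was 0.41 (SE 0.16) and 0.44 (SE 0.15).

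Tapbp (NCBI gene number 21356) encodes tapasin, which holds an empty heavy chain beside the transporter until a peptide is bound. Its level was 105, 85.7 and 83.9 CPM in the Con group (91.4 ± 11.5), 69.5, 78.0 and 71.6 CPM in the Exo group (73.0 ± 4.45), and 89.8, 88.8 and 91.3 CPM in pLV-Exo-Wnt5a (90.0 ± 1.25). The Exo libraries were the lowest, and the pLV-Exo-Wnt5a libraries lay within the Con range, so that Tapbp was not higher than Con with Wnt5a exosomes (log2FC -0.02, SE 0.10). Its log2FC against Exo, 0.31 (SE 0.06), was the smallest of the 10 genes, and its printed start region is the one with a pair of overlapping matches.

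Psmb8 (NCBI gene number 16913) encodes the immunoproteasome subunit that replaces Psmb5 and changes which peptides are cut. It was at 4.38, 3.75 and 4.0 CPM in the Con group (4.04 ± 0.317), 1.86, 2.04 and 3.23 CPM in the Exo group (2.38 ± 0.744), and 5.66, 5.27 and 7.19 CPM in pLV-Exo-Wnt5a (6.04 ± 1.02). The groups were separate, with Exo replicate 3 closest to the Con libraries. These levels rest on between 73 and 297 counts per library. The log2FC was -0.76 (SE 0.25) for Exo against Con, 1.35 (SE 0.24) for pLV-Exo-Wnt5a against Exo, and 0.58 (SE 0.19) for pLV-Exo-Wnt5a against Con.

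Nlrc5 (NCBI gene number 434341), the transactivator of class I genes, was at 4.75, 3.21 and 4.03 CPM in the Con group (3.99 ± 0.769), 2.17, 2.73 and 2.70 CPM in the Exo group (2.53 ± 0.316), and 6.77, 6.47 and 7.07 CPM in pLV-Exo-Wnt5a (6.77 ± 0.303). Its 3 groups did not overlap. The lowest pLV-Exo-Wnt5a library was 2.37 times the highest Exo library and 1.36 times the highest Con library. Nlrc5 was 2.69-fold higher with Wnt5a exosomes than in the Exo group (log2FC 1.43, SE 0.17), with a log2FC of 0.76 (SE 0.20) against Con and of -0.65 (SE 0.22) for Exo against Con.

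**Figure D1:**
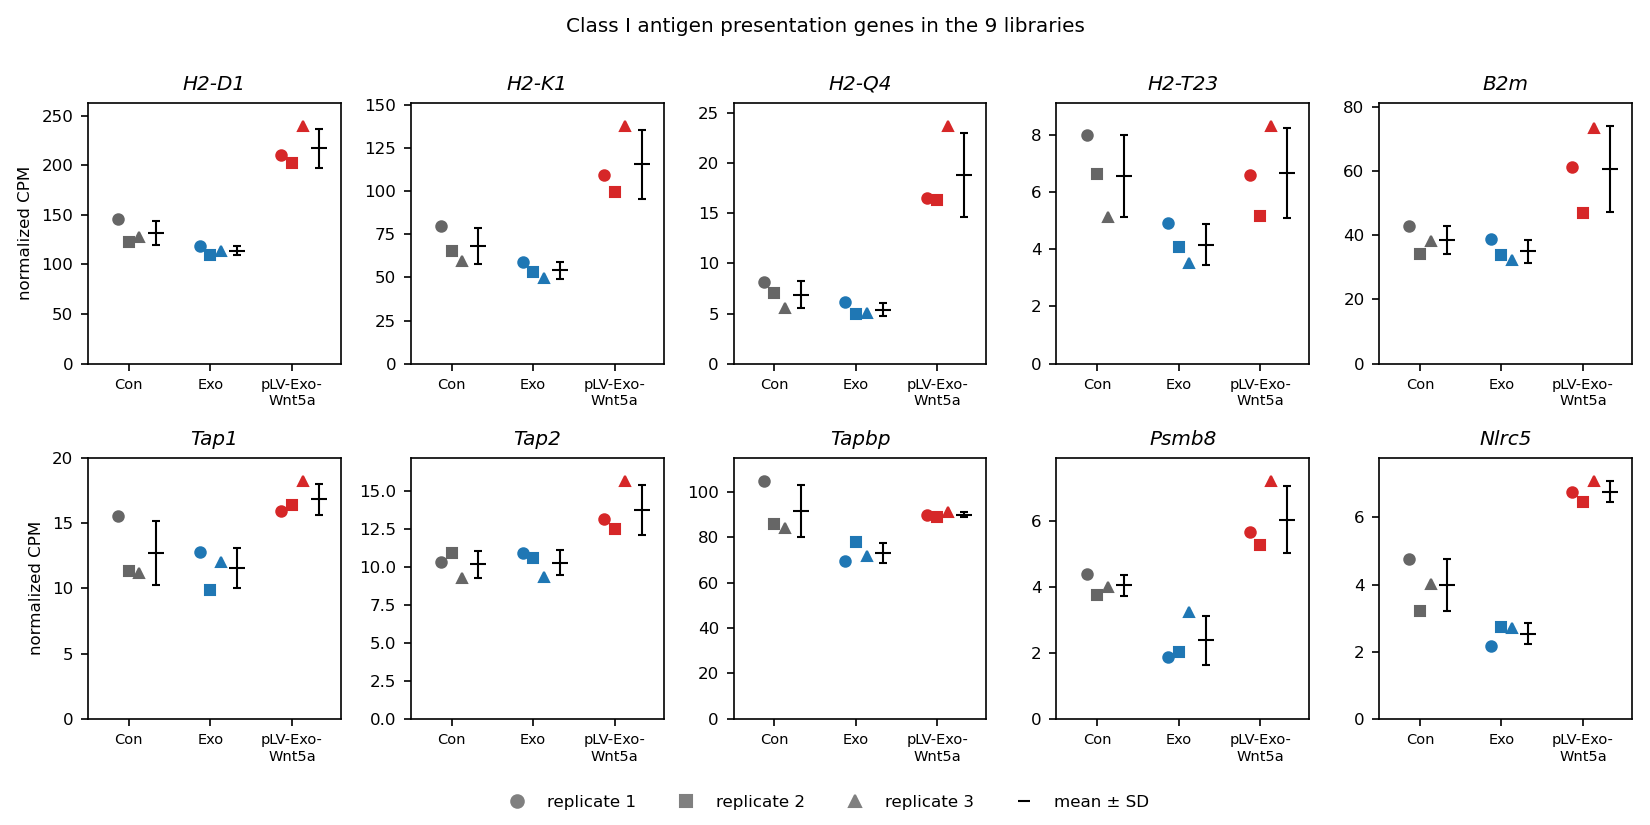
Normalized CPM (y axis, from 0, a separate scale for each gene) of the 10 class I genes, by group (Con, Exo, pLV-Exo-Wnt5a). Each symbol is 1 library, and the dash with bars is the mean ± SD of 3 libraries. The pLV-Exo-Wnt5a libraries are above every Exo library for all 10 genes, and for H2-T23 and Tapbp they overlap with the Con libraries.

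The comparison of pLV-Exo-Wnt5a with Exo asks what Wnt5a overexpression in the donor cells adds to an exosome supplement. All 10 genes were higher in pLV-Exo-Wnt5a without any overlap of libraries, which 7.90% of the 15132 genes tested also showed in this direction. At Q under 0.05 and a fold change above 2, the thresholds of the study, 4 genes were called (H2-K1, H2-Q4, Psmb8 and Nlrc5), against 0.139% of all genes. At Q under 0.05 alone H2-D1 and B2m were added, which makes 6 genes against 0.344% of all. An unadjusted p under 0.05 with an absolute log2FC above 0.58 called 7 genes, the 6 and H2-T23, against 1.51% of all. The median log2FC of the 10 genes was 0.87, and that of all genes tested was 0.00493. Since the 10 genes were chosen with these differences known, nothing is read from the counts. Without pLV-Exo-Wnt5a replicate 3, 2 genes were called (H2-Q4 and Nlrc5), and Psmb8 was called in 2 of the 6 fits that each left out 1 library.

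The comparison of pLV-Exo-Wnt5a with Con, which shares its libraries with the other comparisons, sets the Wnt5a exosomes against medium alone. Of the 10 genes, 8 were higher without overlap, H2-T23 and Tapbp being the exceptions, against 7.52% of the 15089 genes tested. H2-Q4 was the 1 gene called at Q under 0.05 and a fold change above 2, against 0.0663% of all, and it was not called when a pLV-Exo-Wnt5a library or Con replicate 2 was left out. H2-D1 and H2-Q4 were the 2 genes at Q under 0.05 alone, against 0.0795% of all, and 5 genes passed the unadjusted rule (H2-D1, H2-K1, H2-Q4, B2m and Nlrc5), against 1.46%. The median log2FC was 0.62, beside 0.00405 over all genes tested.

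The comparison of Exo with Con asks what exosomes of control donors add to the medium. Here 9 of the 10 genes had a log2FC below 0 and 6 were lower without overlap (H2-D1, H2-K1, H2-T23, Tapbp, Psmb8 and Nlrc5), against 12.4% of the 15070 genes tested. By edgeR's quasi-likelihood test 0 of the 10 were called at Q under 0.05 and a fold change below 0.5, where 0.00664% of all genes were called, and DESeq2 also called 0. At an unadjusted p under 0.05 there were 6 genes, all lower, against 6.01% of all genes lower by this rule, and 3 of them (H2-T23, Psmb8 and Nlrc5) also had an absolute log2FC above 0.58, against 0.909% of all genes. Without Con replicate 1, the library that stood apart, this count of 3 was 1 (Psmb8, log2FC -0.71), and the log2FC was -0.50 for H2-T23 and -0.52 for Nlrc5. The median log2FC was -0.33, beside 0.00197 over all genes tested. The Exo libraries are the lower group here and the reference for the Wnt5a exosomes above, so these differences rest in part on the same libraries.

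**Figure D2:**
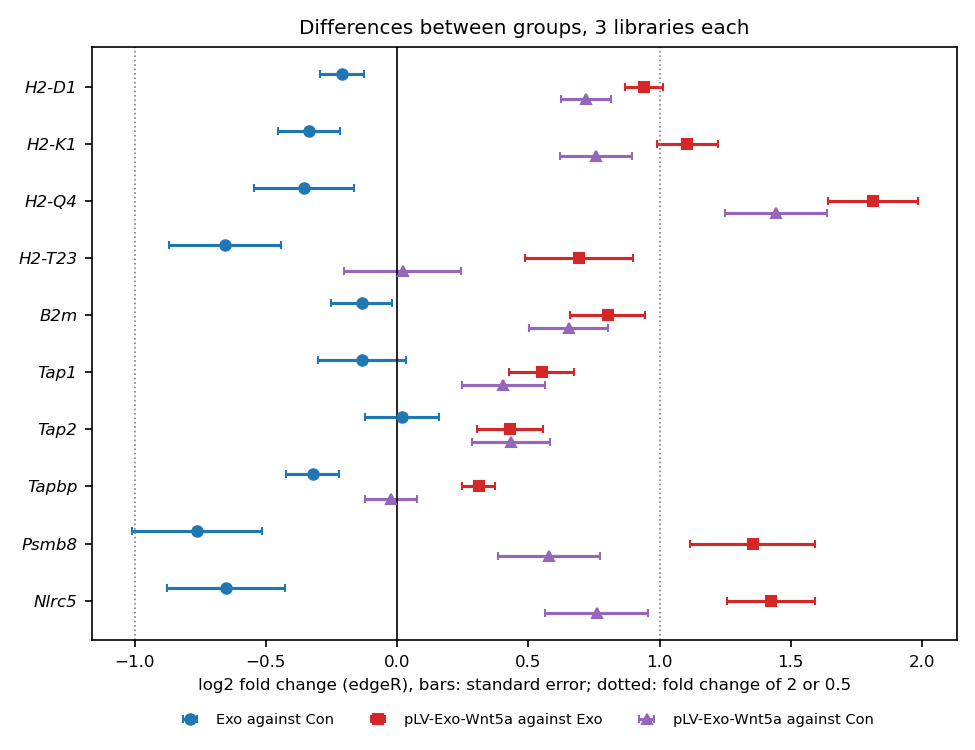
Log2 fold change (x axis) of each class I gene (y axis) in the 3 comparisons, with bars for the standard error of fits on 3 against 3 libraries and dotted lines at a fold change of 2 and of 0.5. Values against Exo run from 0.31 (Tapbp) to 1.81 (H2-Q4), and H2-T23 and Tapbp are at 0.02 and -0.02 for pLV-Exo-Wnt5a against Con.

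Means were in the order Exo, Con, pLV-Exo-Wnt5a for 8 of the 10 genes, and for 4 of these (H2-D1, H2-K1, Psmb8 and Nlrc5) neither pair of neighbours overlapped. Con and Exo overlapped for H2-Q4, B2m and Tap1, and Con and pLV-Exo-Wnt5a overlapped for H2-T23. Tap2 had its lowest mean in Con, next to Exo and overlapping with it, and Tapbp had its highest mean in Con, overlapping with pLV-Exo-Wnt5a.

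Libraries of a group were ordered alike across the genes in pLV-Exo-Wnt5a and less so in Exo. In the pLV-Exo-Wnt5a group replicate 3 was the highest library for 10 of the 10 genes and replicate 2 the lowest for 9. Con replicate 1, the library with the deviating TMM factor, was the highest Con library for 9 genes, and Exo replicate 1 was the highest Exo library for 7 genes but the lowest for the other 3 (Tapbp, Psmb8 and Nlrc5). After each gene's log2 CPM was centred on its own mean over the 9 libraries, the mean of the 10 genes was 0.13, -0.15 and -0.20 in Con replicates 1, 2 and 3. It was -0.38, -0.46 and -0.43 in the Exo group and 0.46, 0.34 and 0.71 in pLV-Exo-Wnt5a. H2-D1 followed this mean profile most closely, with a root mean square difference of 0.08, and H2-Q4 departed from it most, with 0.42.

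**Figure D3:**
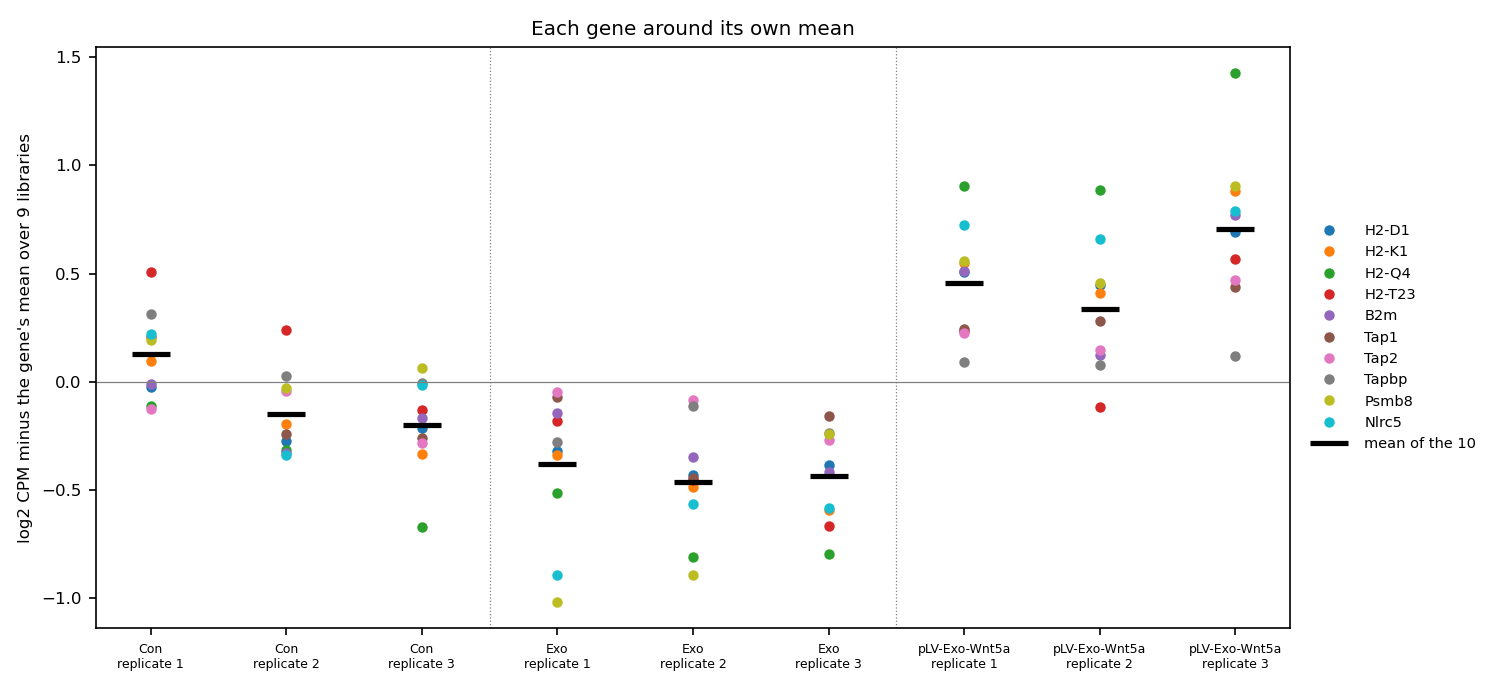
Log2 CPM of each class I gene minus its own mean over 9 libraries (y axis) for each library (x axis); black dashes are the mean of the 10 genes. The dashes lie between -0.46 and -0.38 in the Exo group, between -0.20 and 0.13 in the Con group, and between 0.34 and 0.71 in pLV-Exo-Wnt5a.

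Among 3301 other genes that varied at least as much, those closest to this mean profile over the 9 libraries were Ifitm3 (root mean square difference 0.07 on the log2 scale), A2m (0.08), Cchcr1 (0.11), Sema3b (0.12) and Lgals3bp (0.15). Ifitm3, an interferon-induced membrane protein that restricts virus entry, was at 20.5, 17.0 and 16.7 CPM in the Con group, 13.7, 12.1 and 13.7 CPM in the Exo group, and 27.6, 23.7 and 30.1 CPM in pLV-Exo-Wnt5a. A2m, a secreted protease inhibitor, was at 198, 163 and 168 CPM, 149, 120.0 and 132 CPM, and 253, 231 and 333 CPM in the same groups. Both have their highest pLV-Exo-Wnt5a value in replicate 3 and their lowest in replicate 2, as 9 of the class I genes do. They were picked for their closeness to this profile in these libraries, so the shared order follows from the choice.

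The class I rows were also summed, since reads of near-identical H2 genes can be split between their rows. Over the 15 rows of H2 heavy chains, the sum was between 227 and 279 CPM in the Con group (mean 245), between 197 and 218 CPM in the Exo group (mean 205), and between 356 and 450.2 CPM in pLV-Exo-Wnt5a (mean 396). The sums of the 3 groups did not overlap. The 4 heavy chains described above held 86.5 to 87.5% of these counts in Con, 86.3 to 87.4% in Exo and 90.1 to 90.8% in pLV-Exo-Wnt5a. The sum therefore mostly repeats their levels and is not a separate result. H2-Q4 took 2.43 to 3.07% of the counts of this family in the Con group, 2.53 to 2.82% in the Exo group and 4.33 to 5.26% in the pLV-Exo-Wnt5a group, so that its share was higher with Wnt5a exosomes in addition to its level. H2-T23 took 2.25 to 2.88%, 1.76 to 2.26% and 1.45 to 1.85% of them. B2m had 14.9 to 16.9 counts per 100 counts of the family in Con, 16.2 to 17.9 in Exo and 13.2 to 16.3 in pLV-Exo-Wnt5a, and these ranges of pLV-Exo-Wnt5a overlapped with both other groups.

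Other genes of the pathway were taken from 4 lists of 49 genes (other heavy chains and class I-like genes, other immunoproteasome and activator genes, other loading and trimming genes, and class I transcription regulators), of which 42 were in the table. In the comparison of pLV-Exo-Wnt5a with Exo, 33 of them were tested and 22 had a log2FC above 0, with a median of 0.06. Quasi-likelihood tests of edgeR called 0 of the 33 by the study's thresholds on Q and fold change, DESeq2 called 0, and at an unadjusted p under 0.05 there were 4 higher and 1 lower, where 5.07% of all genes were higher and 6.91% lower. H2-T22, a nonclassical heavy chain recognized by γδ T cells, was at 35.3, 30.6 and 38.9 CPM in pLV-Exo-Wnt5a and 27.8, 23.5 and 25.1 CPM in the Exo group. Its libraries did not overlap, and its log2FC of 0.47 (SE 0.11) missed the threshold (Q = 0.0901, edgeR quasi-likelihood, Benjamini-Hochberg adjusted). Psmb9, the immunoproteasome subunit that replaces Psmb6, was at 3.28, 1.77 and 4.48 CPM against 2.12, 1.84 and 1.61 CPM, overlapping through pLV-Exo-Wnt5a replicate 2 (log2FC 0.79, SE 0.32, edgeR Q = 0.357). The remaining immunoproteasome subunit Psmb10 and the activator subunits Psme1 and Psme2 had log2FC values of 0.06, 0.10 and 0.15.

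The other heavy chains and class I-like genes gave no call either. Hfe, a class I-like regulator of iron uptake, was at 4.34, 4.26 and 6.15 CPM in pLV-Exo-Wnt5a and 2.96, 3.88 and 3.28 CPM in the Exo group (log2FC 0.55, edgeR Q = 0.317). H2-Q7, H2-M3 and H2-Q2 were each under 1 CPM on average in every group, Mr1, Cd1d1 and Fcgrt had log2FC values between -0.23 and 0.07, and H2-M5 was not tested in this comparison. Among the loading genes, Canx, the chaperone calnexin, had a log2FC of -0.26 (edgeR Q = 0.334). In the other comparisons 0 of the 34 genes tested were called by edgeR or by DESeq2, with 4 genes higher and 0 lower at an unadjusted p under 0.05 for Exo against Con (Canx, Pdia3, Lnpep and Nfyb) and 3 higher and 0 lower for pLV-Exo-Wnt5a against Con (among them Hfe and Nfyb). By this rule 8.92% of all genes were higher and 6.01% lower for Exo against Con, and 4.20% were higher and 4.15% lower for pLV-Exo-Wnt5a against Con, so these few genes are given as values only.

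Subunits of the constitutive proteasome core, which the immunoproteasome subunits replace, were examined beside them. For pLV-Exo-Wnt5a against Exo, 14 were tested, the median log2FC was 0.01, 0 were called by edgeR or DESeq2 and 0 had an unadjusted p under 0.05. Of 10 MHC class II genes, 3 were tested with log2FC values between -0.04 and 0.37, and again 0 were called by edgeR or DESeq2 and 0 had an unadjusted p under 0.05. Of 10 interferon ligands 1 was in the table and 0 passed the filter, and of 11 receptors for class I molecules 3 were in the table and 0 passed it in this comparison.

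Interferon-induced genes outside the class I pathway were examined in the same way. Of 24 tested against Exo, 3 rose at Q under 0.05 and a fold change above 2, against 0.139% of all genes. A log2FC above 0 was measured for 21 of the 24, against 51.4% of all genes, with a median of 0.84 beside 0.87 for the class I genes. The 3 genes were Gbp2, a guanylate-binding protein (log2FC 1.52, SE 0.25, edgeR Q = 0.0246), Oasl2, a 2′-5′ oligoadenylate synthetase-like protein (log2FC 1.43, SE 0.16, edgeR Q = 0.00239), and Ifitm3 (log2FC 1.06, SE 0.11, edgeR Q = 0.00176). An unadjusted p under 0.05 was reached by 13 genes, all higher, against 5.07% of all genes higher by this rule. Gbp6, 1 of the 13, had 11, 3 and 7 counts in Exo and 21, 14 and 42 in pLV-Exo-Wnt5a. It passed the filter on low counts only through pLV-Exo-Wnt5a, where it is high, so it is no support for these counts. This count of 3 was 1 (Oasl2) without Exo replicate 2 or without pLV-Exo-Wnt5a replicate 3, 5 without Exo replicate 1 or without pLV-Exo-Wnt5a replicate 2, 7 without a filter on low counts, and 8 with DESeq2. Against Con, 21 of 23 had a log2FC above 0 (median 0.85), against 50.8% of all genes. Of the 23, 15 had an unadjusted p under 0.05, all higher (4.20% of all genes), and edgeR called 0. Among the 15, Gbp6 (2, 13 and 8 counts in Con) and Xaf1 (2, 6 and 14 counts in Con) passed the filter only through pLV-Exo-Wnt5a. They are high in that group and so are no support for this count. DESeq2 called 4 (Gbp2, Irgm2, Oasl2 and Usp18), edgeR without a filter on low counts called the same 4, and edgeR on all 9 libraries called 1 (Oasl2). For Exo against Con the median was -0.06, and 9 of 23 had a log2FC above 0, against 50.3% of all genes. At an unadjusted p under 0.05, 2 were higher (Gbp7 and Irgm2) and 1 was lower, against 8.92% and 6.01% of all genes. Gbp7, with 2, 6 and 0 counts in Con and 24, 12 and 11 in Exo, passed the filter only through Exo. The list was chosen with results of these data known, so it is not independent evidence of its direction. Interferon receptors and signaling genes had a median log2FC of 0.02 over 14 tested against Exo, and edgeR and DESeq2 called 0 of them, with 2 higher (Irf9 and Stat2) and 1 lower (Ptpn2) at an unadjusted p under 0.05.

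**Figure D4:**
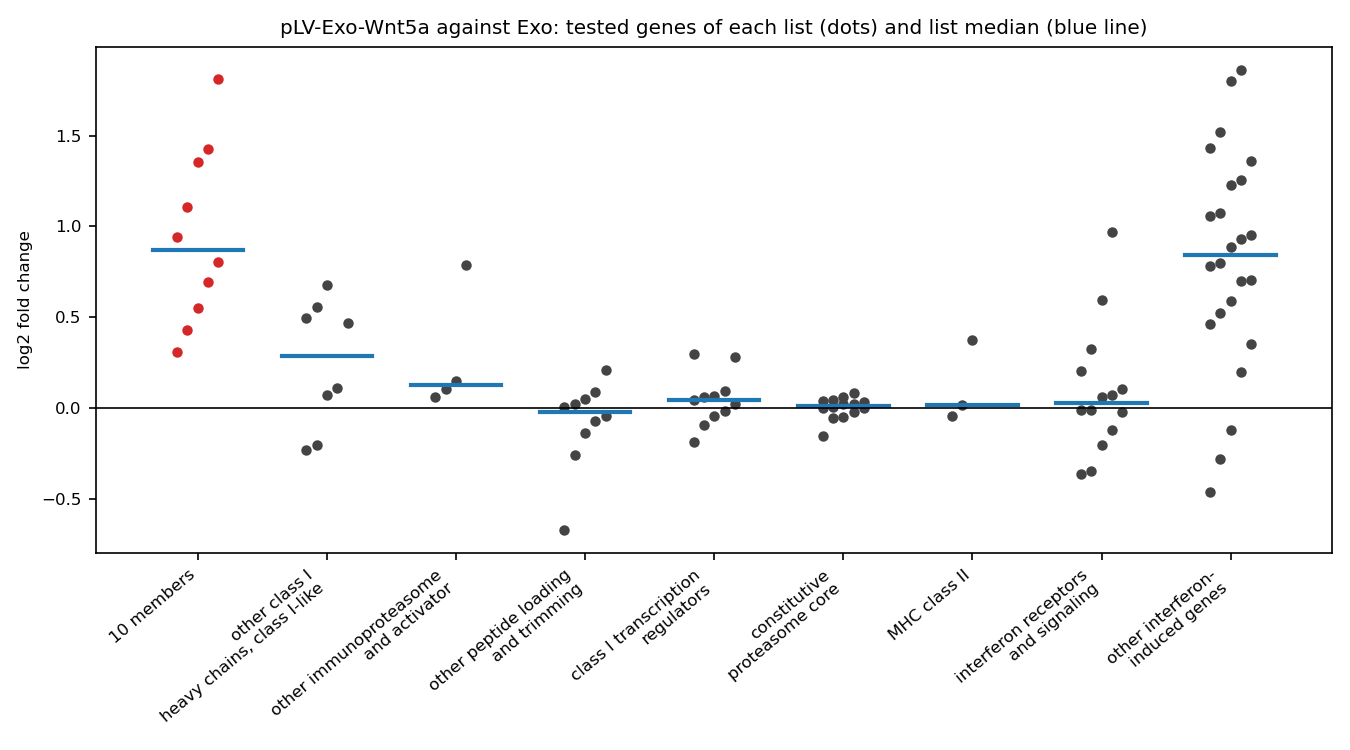
Log2 fold change between pLV-Exo-Wnt5a and Exo (y axis) of every tested gene in each list (x axis); blue lines are list medians. The medians are 0.87 for the 10 class I genes (red) and 0.84 for the other interferon-induced genes, and 0.01 for the constitutive proteasome core.

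Markers of other cells in the cultures moved in part with these genes. The summed level of 15 markers of microglia and macrophages, cells that express class I genes, was 72.0 to 77.4 CPM in the Con group, 58 to 64.4 CPM in the Exo group and 68.1 to 70.8 CPM in pLV-Exo-Wnt5a. The means of this sum were in the order Exo, pLV-Exo-Wnt5a, Con, which is also the order of Tapbp. Of the 15 markers 12 passed the filter. At an unadjusted p under 0.05, 5 of the 12 were higher in pLV-Exo-Wnt5a than in Exo (C1qa, C1qb, C1qc, Csf1r and Itgam), against 5.07% of all genes. The libraries of these 5 did not overlap, which 7.90% of all genes also showed in this direction. For Exo against Con 5 of the 12 were lower (Cx3cr1, C1qa, C1qb, C1qc and Csf1r), against 6.01% of all genes. They were lower without overlap, as were 12.4% of all genes. These are the directions of most class I genes. In each of these comparisons edgeR called 0 of the 12 and DESeq2 called 4 (C1qa, C1qb, C1qc and Csf1r). For pLV-Exo-Wnt5a against Con 0 were higher and 1 was lower at an unadjusted p under 0.05, and both tools called 0, with a median log2FC of -0.08. C1qa was at 3.38, 4.13 and 3.75 CPM in the Con group, 1.66, 1.27 and 1.24 CPM in the Exo group, and 2.70, 4.64 and 2.83 CPM in pLV-Exo-Wnt5a. Csf1r, the receptor that microglia need to survive, was at 1.93, 1.36 and 2.85 CPM, 0.740, 0.323 and 0.959 CPM, and 2.6, 2.86 and 1.96 CPM in the same groups. Over all 15 markers, the means of 6 were in the order Exo, Con, pLV-Exo-Wnt5a, as for 8 class I genes, those of another 6 in the order Exo, pLV-Exo-Wnt5a, Con, and the other 3 had other orders. Ptprc, a marker of all leukocytes, had at most 6 counts in any library. Of 10 markers of T, NK and B cells, 2 were in the table, with a summed level of at most 0.202 CPM. The summed level of 10 astrocyte markers was 5187 to 6330 CPM in the Con group, 5104 to 5165 CPM in the Exo group and 6757 to 7137 CPM in pLV-Exo-Wnt5a. Gfap, the astrocyte intermediate filament, was at 3103, 2261 and 2289.7 CPM, 2195, 2213 and 2275 CPM, and 3971, 4071 and 4029 CPM in the same groups. It was higher with Wnt5a exosomes than with control exosomes (log2FC 0.86, SE 0.05, edgeR Q = 3.36e-05), and the difference in the sum was that of Gfap. The paper reports the reverse for GFAP in NSC groups of these names, by immunofluorescence, RT-qPCR and western blot. There it was lower with exosomes and lowest with Wnt5a exosomes. The reason for this difference was not tested. Without Gfap, the other 9 astrocyte markers summed to 2926 to 3226 CPM in Con, 2873 to 2970.0 CPM in Exo and 2686 to 3108 CPM in pLV-Exo-Wnt5a, which overlap. Of the 10 markers, 4 had a log2FC above 0 against Exo and 6 below it, with a median of -0.16. At an unadjusted p under 0.05, Gfap and Aldh1l1 were higher and Slc1a2, Slc1a3 and Gja1 lower, and of these 5 Gfap alone had an edgeR Q under 0.05.

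The summed level of 10 markers of neural stem cells had the order of 8 of the 10 class I genes, at 3693 to 4027 CPM in Con (mean 3812), 3165 to 3685 CPM in Exo (mean 3351) and 3571 to 4607 CPM in pLV-Exo-Wnt5a (mean 4121). Con and pLV-Exo-Wnt5a overlapped, and so did Exo and pLV-Exo-Wnt5a. As for 9 or more of the class I genes, Con replicate 1 and pLV-Exo-Wnt5a replicate 3 were the highest libraries of their groups and pLV-Exo-Wnt5a replicate 2 the lowest. Vim, an intermediate filament of neural progenitors and of astrocytes, was at 2008, 1625 and 1564 CPM in Con, 1467, 1236 and 1302 CPM in Exo, and 2077, 1694 and 2358 CPM in pLV-Exo-Wnt5a. It was higher against Exo (log2FC 0.62, SE 0.11, edgeR Q = 0.0389). The other 9 markers summed to 2020 to 2130 CPM in Con, 1901 to 2218 CPM in Exo and 1877 to 2249 CPM in pLV-Exo-Wnt5a, which overlap. Taken singly, the means of 6 of the 10 (Nes, Pax6, Vim, Prom1, Fabp7 and Notch1) were in the order Exo, Con, pLV-Exo-Wnt5a. Those of Sox2, Msi1, Sox1 and Hes5 were in other orders. Markers of neurons summed to 3186 to 4030 CPM over the 9 libraries. Of the 10 neuron markers 9 had a log2FC above 0 for Exo against Con, the opposite direction to 9 of the class I genes, with a median of 0.37. Of these, 7 were higher at an unadjusted p under 0.05, against 8.92% of all genes, and edgeR and DESeq2 called 0. Against Exo the median with Wnt5a exosomes was -0.01, with 0 higher and 3 lower at an unadjusted p under 0.05, of which Dcx, a protein of young neurons, was lower at an edgeR Q of 0.0113 (log2FC -0.60). Markers of the oligodendrocyte lineage summed to 2582 to 3323 CPM, with means of 3045 in Con, 2775 in Exo and 2711 in pLV-Exo-Wnt5a, and the means of 2 of these 10 markers, the myelin genes Mbp and Mag, had the order Exo, Con, pLV-Exo-Wnt5a. Mbp was at 171, 155 and 157 CPM in Con, 98.7, 127 and 129 CPM in Exo, and 152, 227 and 146 CPM in pLV-Exo-Wnt5a, with the Exo libraries below all others. Its log2FC was 0.57 (SE 0.16, edgeR Q = 0.161) against Exo, and that of Mag was 0.71 (SE 0.19, edgeR Q = 0.149). Mesenchymal markers summed to 135 to 178 CPM, most of it Thy1, and endothelial markers to 5.64 to 9.88 CPM. Acta2, smooth muscle actin, was at 0.817, 0.591 and 0.787 CPM in Con, 0.587, 0.373 and 0.505 CPM in Exo, and 1.44, 1.20 and 1.50 CPM in pLV-Exo-Wnt5a, from 15 to 62 counts per library. Its groups did not overlap, and its log2FC of 1.51 against Exo (SE 0.35) was called by DESeq2 and not by edgeR (Q = 0.102). The part of these cell types in the class I differences was not tested, and in these bulk libraries fewer cells of a type and less RNA per cell cannot be told apart.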

How the data were processed

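RNA of NSC cultures (Con, Exo and pLV-Exo-Wnt5a, 3 libraries per group) was sequenced on NovaSeq. The values deposited by the authors were raw counts, a whole number for each gene and library. The paper names HISAT2 for alignment, whereas the submitters' processing notes name Bowtie2, RSEM 1.3.1 and DESeq2 1.4.5, so the counts may be rounded estimates. The genome build and annotation are not given in the sources used here. Each column was assigned by its library name, and 0 columns of counts were left without a sample.

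The 10 genes and all lists were chosen with earlier results of these data known, and the KEGG list was taken from the deposited annotation. From the counts, genes were kept by filterByExpr, normalized by TMM and tested in pairs of groups (6 libraries each) by quasi-likelihood (edgeR 4.0.16, R 4.3.3). Q is the Benjamini-Hochberg adjusted p over all genes tested. The thresholds for a call, taken from the study, were Q under 0.05 with a fold change of over 2 or under 0.5. The p-values weigh the difference between groups against the spread between these libraries, which may be technical. CPM was scaled by TMM over 9 libraries, and log2 CPM used a prior count of 2. Named list genes had an unadjusted p under 0.05 (at most 5 per list and comparison) or belonged to the heavy chain and immunoproteasome lists. Genes with a like pattern had the 5 smallest root mean square differences. Pathway genes of the KEGG antigen presentation list without the 10 genes gave 0 calls by edgeR among 37 or 38 tested in each comparison, 0 by DESeq2, and between 3 and 6 at an unadjusted p under 0.05.

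Total counts of 32765138 to 40427647 set the precision of counting. Alternatives were RLE scaling, DESeq2 1.42.0 (the tool of the study), fits on all 9 libraries, other filters and thresholds, the replicate number as a block, and leaving out each replicate. The steps were tested on simulated data. Start regions came from RefSeq (GRCr8). The RT-qPCR, protein and animal experiments are not analysed here. The values of 2 genes of the lists are not reported here.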

Additional observations from a re-analysis of the deposited data

How the results depend on the processing

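The counts of called class I genes (Exo against Con 0, pLV-Exo-Wnt5a against Exo 4, pLV-Exo-Wnt5a against Con 1) and of other class I pathway genes (0 in each) were the same counts with RLE scaling, with DESeq2 on 2 groups or on 9 libraries, with edgeR on 9 libraries, without a filter on low counts and with at least 10 counts in every library. By the rule on unadjusted p (under 0.05, with an absolute log2FC over 0.58) the class I counts were 3 (all lower), 7 and 5, and the other pathway counts were 1, 1 and 1 (Lnpep, Psmb9 and Hfe, all higher). With Q under 0.05 alone 2 class I genes were called for pLV-Exo-Wnt5a against Con. When each library was left out in turn, the class I counts ranged from 0 to 0, from 2 to 4 and from 0 to 1, and the other pathway counts stayed at 0. The smallest count of 2 was without pLV-Exo-Wnt5a replicate 3, and the count of 0 against Con was without Con replicate 2 or without pLV-Exo-Wnt5a replicate 1, 2 or 3. Fewer libraries were tested in these fits. The cause of any other move was not tested. Counting by the rule on unadjusted p with each library left out, which was chosen after seeing the data, gave 1 to 3, 6 to 8 and 4 to 6 class I genes, the count of 1 being without Con replicate 1.

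Replicate numbers did not pair the samples: the deviations of same-numbered libraries correlated between -0.206 and 0.0661 across genes over 9 pairs. A fit with the replicate number as a block called 0, 4 and 1 class I genes and 0, 0 and 0 other pathway genes. For interferon-induced genes outside the pathway, the block moved the count for pLV-Exo-Wnt5a against Con from 0 to 3.

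Over 390 refitted log2FC values of the 10 genes, none moved by 1 SD between replicates. For the 180 values that leave out 1 library this says little, since plain means of 3 cannot shift by more than 0.816 SD then. The fitted values are not plain means, and their largest shift was 0.902 SD. The other 210 values shifted by at most 0.194 SD. The sign changed in 7 values, all with 1 library left out: Tap1, Exo against Con, was 0.03 without Con replicate 1. Tap2, Exo against Con, was -0.05 without Con replicate 3, -0.02 without Exo replicate 1 and -0.01 without Exo replicate 2. H2-T23, pLV-Exo-Wnt5a against Con, was -0.13 without Con replicate 3, and it was -0.16 without pLV-Exo-Wnt5a replicate 3, and Tapbp was 0.08 without Con replicate 1. The genes with the fewest counts per library were Psmb8 (73 to 297), Nlrc5 (85 to 292) and H2-T23 (139 to 343). How far depth limits their values was not tested.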
